A study of Mus musculus with 4 samples.

Results

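The 32 genes described here encode the voltage-gated calcium channels and the calcium release channels of the endoplasmic reticulum, and they were set within 21883 protein-coding genes of the mouse annotation. They were chosen by gene family, with earlier results of these data known. They comprise 10 pore subunits, 16 auxiliary subunits and 6 intracellular release channels. Chromatin came from striatum, and the series names a single genotype, Gad2Cre x ThraGS, with GS-TRa1 as the protein studied, a GS-tagged thyroid hormone receptor α1. There were 3 immunoprecipitated (IP) fractions, taken on IgG-coated magnetic beads, and 1 input for which the antibody is given as none. The Gad2 gene, which drives Cre here, is active in GABAergic neurons, and the cells that carried the tagged receptor were not given in the sources used here. Age, sex and number of animals were not given there either, and an untagged control was not analysed here.

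The data are 1 list of peaks whose columns name no sample, so no value per library and no spread between replicates can be given, and no test was run. A gene was marked when the summit of a peak, its highest point, lay inside the gene span or within 30 kb of it. Each such pair of a gene and a summit is called a link. For each peak the list gives the pileup, which is the height of stacked fragments at the summit, and the fold enrichment of that pileup over the local background. Both are the authors' values and only describe peaks within this list. Fragment numbers are the pileup divided by its step of 0.939, and their 95% exact Poisson intervals cover counting error only. Peaks carry no expression levels, so the tissue label could not be checked against marker genes. Binding in few cells and weak binding in many cannot be told apart.

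Voltage-gated calcium channels open when the membrane depolarises and let calcium into the neuron. The pore is an alpha1 subunit, and auxiliary subunits shape its delivery to the membrane and its gating. Ryanodine receptors and IP3 receptors release calcium from the endoplasmic reticulum, the first on calcium entry and the second after activation of phospholipase C. Thyroid hormone receptors bind DNA together with retinoid X receptors, typically at paired AGGTCA elements, and regulate transcription according to whether hormone is bound.

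RefSeq promoters (GRCm38.p6, 250 bases before to 50 after an annotated start) were found for 24 of the 32 genes, as 33 windows, and no peak overlapped any of them. The other 8 genes were not examined in this way. They include Itpr1 and Cacna2d4, with summits 0.595 and 0.639 kb from a gene end. The bases before 2 starts are shown because summits came closest to these among the 33 windows. An internal start of Cacnb1, which encodes the beta1 subunit, lay between 2 summits, one 0.694 kb upstream and one 0.653 kb downstream of it. The start of Cacna2d3, which encodes the alpha2delta-3 subunit, lay 1.27 kb downstream of a summit. Both genes are on the minus strand, and the bases at chr11:98018373-98018622 and chr14:29721865-29722114 read as follows, 5′ to 3′.
Cacnb1: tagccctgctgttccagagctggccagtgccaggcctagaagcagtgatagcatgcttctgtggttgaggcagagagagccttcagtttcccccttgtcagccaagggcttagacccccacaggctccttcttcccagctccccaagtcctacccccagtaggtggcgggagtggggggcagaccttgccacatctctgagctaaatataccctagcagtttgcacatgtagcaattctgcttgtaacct
Cacna2d3: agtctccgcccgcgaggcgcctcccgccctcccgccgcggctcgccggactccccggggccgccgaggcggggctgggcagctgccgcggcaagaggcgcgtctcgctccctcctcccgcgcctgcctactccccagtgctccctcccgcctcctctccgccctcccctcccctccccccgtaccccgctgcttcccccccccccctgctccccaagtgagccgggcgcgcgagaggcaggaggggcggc
Neither window holds AGGTCA on either strand. The Cacna2d3 window of 300 bases had a GC content of 81.3% and the internal Cacnb1 window 59.3%.

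The letters AGGTCA, searched exactly and on both strands, occurred in 3 of the 33 windows (9.09%), against 16.3% of 32817 promoter windows of the same length. The windows belong to Cacna1f, Cacng8 and Ryr2, none of which had a summit. Cacna1f encodes a pore of the retina, and its match began at position -32 from the start, at chrX:7607051-7607096 on the plus strand. Cacng8 encodes an auxiliary protein of AMPA receptors and held 1 match before the start, at chr7:3393898-3393943 on the plus strand, and 1 after it. Ryr2 encodes the ryanodine receptor best known from heart, and its match began at position -117, at chr13:12107037-12107082 on the minus strand. Stretches of 46 bases place the matches before the starts, in capitals, which read TGACCT where the element is on the opposite strand.
Cacna1f: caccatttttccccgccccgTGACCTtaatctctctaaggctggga
Cacng8: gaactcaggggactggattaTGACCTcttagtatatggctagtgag
Ryr2: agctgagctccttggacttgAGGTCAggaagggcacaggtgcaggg
A pair of AGGTCA in the same direction with 4 bases between, on either strand, was in 0 of the 33 windows and in 5 of all 32817, or 0.0152%. A match describes letters and is not a binding site.

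A summit marked 23 of the 32 calcium genes, 71.9%, where 32.4% of all protein-coding genes and 49.3% of genes of similar length were marked. Genes of similar length are, for each member, the 100 protein-coding genes nearest in span length, members left out. The members had 77 links to 75 different summits, or 2.41 per gene, where genes of similar length had a mean of 1.06. Shared summits were 1 for Cacna1c with Cacna2d4 and 1 for Cacng1 with Cacng4. Expression in the striatum, which the compared genes may share or lack, was not used here.

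By role, 7 of 10 pore genes were marked (70.0%, against 52.5% of genes of similar length). Among auxiliary genes it was 11 of 16 (68.8%, against 44.8%), and among release genes 5 of 6 (83.3%, against 56.2%). Pores and release channels both had 3.0 links per gene and auxiliary subunits 1.81, against 1.21, 1.32 and 0.877 in genes of similar length. The ratio of the 2 numbers was 2.48 for pores, 2.27 for release channels and 2.07 for auxiliary subunits. Auxiliary genes, with the fewest links per gene, were also the shortest, with a median span of 80 kb against 135 kb for pores and 366 kb for release channels.

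**Figure D1:**
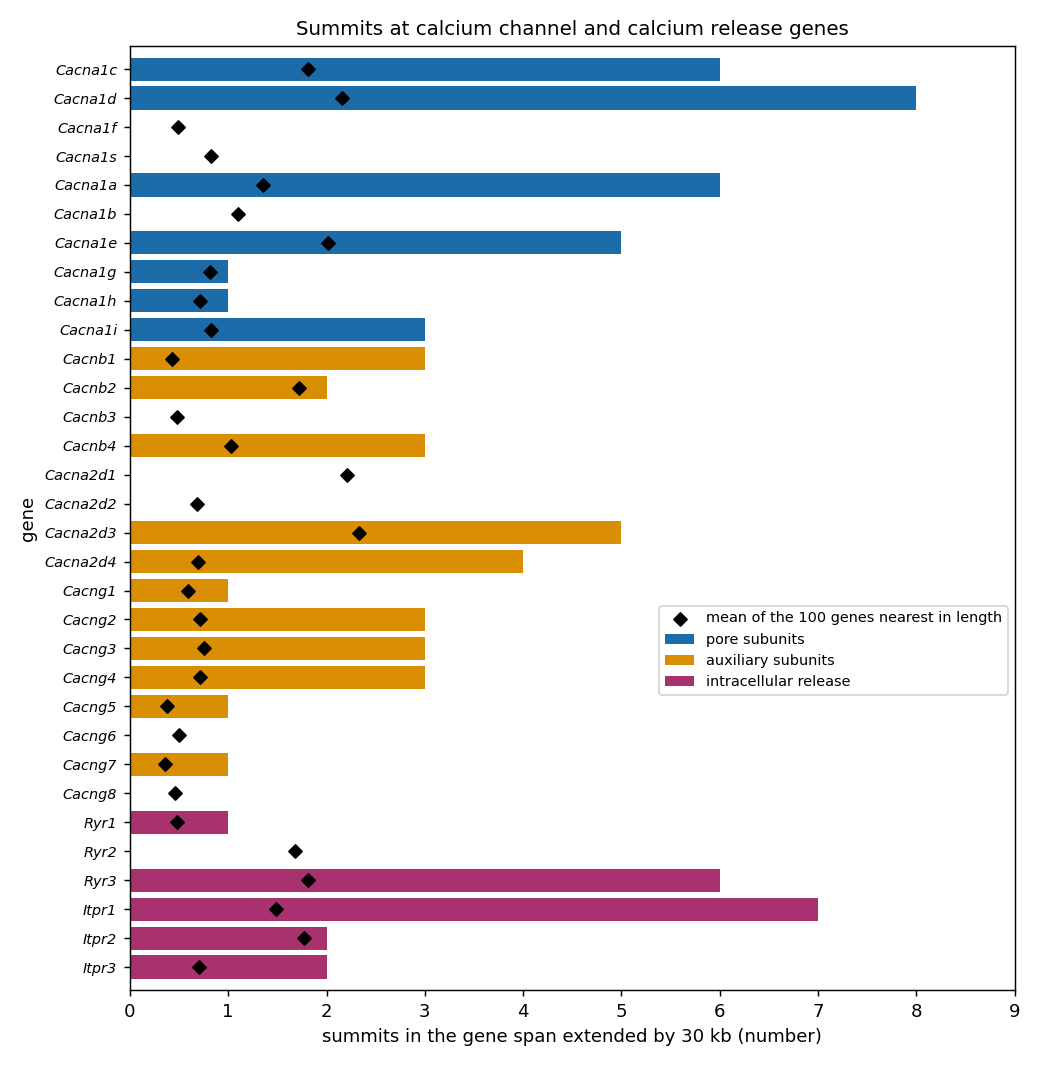
Number of summits in the gene span extended by 30 kb for each of the 32 genes (bars, coloured by class), with the mean of the 100 genes nearest in length as a diamond. The bars of Cacna1d (8), Itpr1 (7), Cacna1a, Cacna1c and Ryr3 (6 each) reach furthest, and 9 genes have no bar.

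The 7 members with 5 or more summits held 43 of the 77 links. These were Cacna1d with 8, Itpr1 with 7, Cacna1a, Cacna1c and Ryr3 with 6 each, and Cacna1e and Cacna2d3 with 5 each. The shortest of them, Cacna1a, spans 302 kb, and longer genes had more summits over the genome too, as the plot of summits against length shows. Among short genes stood Cacnb1, with 3 summits in a span of 21.5 kb, where 1 of 100 genes of similar length had as many. For 11 members in all, at most 10 of 100 genes of similar length had as many summits. The share of other genes that meet this cut-off was not counted, so the 11 cannot be set beside it.

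**Figure D2:**
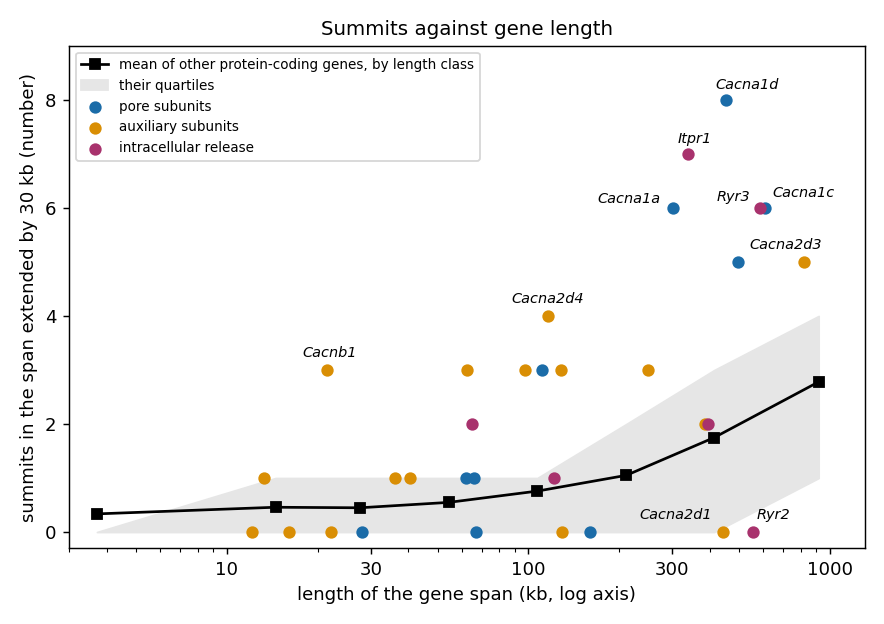
Summits in the span extended by 30 kb against span length (log axis) for the 32 genes (coloured points) and for other protein-coding genes in 8 length classes (black squares: mean, grey band: quartiles). Class means run from 0.336 for the shortest to 2.78 for the longest genes, and Cacna1d, Itpr1, Cacna1a, Cacna2d4 and Cacnb1 lie above the band while Cacna2d1 and Ryr2 lie at 0.

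Of the Cav1 or L-type pores, Cacna1d and Cacna1c encode the neuronal forms Cav1.3 and Cav1.2. Cacna1d (chromosome 14, 30039941 to 30491156) had 8 summits, where genes of similar length had a mean of 2.16 and 5 of 100 had as many. Its strongest peak, at 30196299 to 30196609, had a pileup of 54.46, a fold of 18.0 and 58 fragments (interval 44.0 to 75). The peak at 30271898 to 30272353 had a higher pileup, 62.91 with 67 fragments (51.9 to 85.1), but a lower fold of 16. The background computed from its pileup and fold was thus higher, at 3.0. The next by fold, at 30383866 to 30384141, had a pileup of 35.68 and a fold of 12.7. The other inside peaks of Cacna1d had pileups of 31.93, 21.6, 19.72 and 14.09 and folds of 8.23, 7.82, 7.03 and 5.22. These 7 were spread over the gene from 53.5 to 413 kb above its lower end. The weakest, with a pileup of 13.15 and a fold of 4.90, lay 4.67 kb below the gene inside Chdh, a choline metabolism gene. The summit nearest to an annotated start of Cacna1d was 30.5 kb from it.

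Cacna1c (chromosome 6, 118587240 to 119197384) had 6 summits against a mean of 1.81, and 6 of 100 genes of similar length had as many. One peak stood above the rest, at 118914123 to 118914502, with a pileup of 69.49, a fold of 24.4 and 74 fragments (58.1 to 92.9). It ranked 127th of all peaks by fold and lay deep in the gene, 283 kb from its 5′ end and 156 kb from the nearest annotated start. The other 4 inside the gene had pileups of 22.54, 15.96, 15.02 and 11.27 and folds of 6.85, 5.49, 5.53 and 4.25. Their fragment intervals reached at most 35.7 and did not overlap that of the strongest. The sixth, at 119216912 to 119217389, had a pileup of 46.95 and a fold of 12.0. It lay 19.8 kb beyond the 5′ end inside Dcp1b, an mRNA decapping gene, and 19.3 kb from Cacna2d4, so it counted for both channel genes. The remaining L-type pores, Cacna1s of skeletal muscle and Cacna1f of the retina, had no summit, and the nearest were 352 kb and 4000329 bp away. At their lengths 58 and 68 of 100 genes had none.

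The Cav2 pores carry presynaptic calcium entry. Cacna1a (chromosome 8, 84338631 to 84640251), which encodes the P/Q-type pore, had 6 summits against a mean of 1.35, and 4 of 100 genes of similar length had as many. Its peaks were alike in height, with pileups of 28.17, 18.78, 28.17, 24.41, 22.54 and 32.87 in order along the chromosome and folds of 9.72, 6.85, 8.94, 8.80, 8.15 and 11.7. The strongest, at 84573614 to 84573911, held 35 fragments (24.4 to 48.7), an interval that overlaps that of the weakest, 20 fragments (12.2 to 30.9). The first summit lay 2.24 kb below the gene and the other 5 inside it, including a pair 1483 bp apart. No other protein-coding gene was nearer than 65.9 kb to any of the 6.

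Cacna1e, which encodes the R-type pore, had 5 summits, all inside its 494 kb, against a mean of 2.02, and 12 of 100 genes of similar length had as many. Its pileups ran from 15.96 to 25.35 and its folds from 4.71 to 9.12, with the strongest peak at 154553553 to 154553797 on chromosome 1. A pair of its summits, with folds of 5.87 and 8.47, lay 794 bp apart and 22.5 and 21.7 kb downstream of an internal annotated start. Cacna1b, the N-type pore gene, had no summit in 159 kb, and the nearest was 75.3 kb away with a fold of 6.43. At its length 42 of 100 genes had none.

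The Cav3 pores give the low-threshold T-type current, and all 3 were marked. Cacna1i (chromosome 15, 80287238 to 80398292) had 3 summits against a mean of 0.83, and 10 of 100 genes of similar length had as many. Its strongest peak lay outside, 20.1 kb past the 3′ end at 80418232 to 80418539, with a pileup of 59.16, a fold of 20.8 and 63 fragments (48.4 to 80.6). The nearest other protein-coding gene to it was Enthd1, at 33.3 kb. The 2 inside Cacna1i had folds of 6.20 and 4.01, with pileups of 16.9 and 15.02. Cacna1g had 1 summit, 1.88 kb below the gene, with a pileup of 19.72 and a fold of 7.17. Cacna1h had 1 inside, 6.24 kb from its upper end, with a pileup of 22.54 and a fold of 8.15. At least 1 summit was found at 43 and 42 of 100 genes of those lengths.

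Beta subunits escort the pore to the membrane, and Cacnb2 had the strongest peak of all 32 genes in both pileup and fold. At chromosome 2, 14595851 to 14596217, it had a pileup of 77.0, a fold of 27.0 and 82 fragments (65.2 to 102), and it ranked 84th in the list. It lay 7.82 kb outside the gene and 8.26 kb upstream of the nearest annotated start, with the next protein-coding gene, Slc39a12, at 101 kb. The only other summit of Cacnb2, with a pileup of 17.84 and a fold of 5.84, lay 3.81 kb past its 3′ end inside Nsun6. Its 2 summits compare with a mean of 1.72 for its length, and none lay within its 385 kb.

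Cacnb1 (chromosome 11, 98001508 to 98023034) had 3 summits inside the gene, against a mean of 0.43. The strongest, at 98008171 to 98008601, had a pileup of 50.71, a fold of 15.9 and 54 fragments (40.6 to 70.5). The pair around the internal start shown above, at 98017595 to 98017844 and 98018966 to 98019169, had pileups of 27.23 and 22.54 and folds of 9.41 and 8.15. Cacnb4, the beta subunit gene mutated in the lethargic mouse, had 3 summits inside its 248 kb, with pileups of 30.99, 22.54 and 17.84 and folds of 11.1, 3.92 and 4.71. The second had a background of 5.0, the highest among the members' peaks and shared with 1 peak each at Cacna2d3 and Ryr3. Cacnb3 had none, but a summit with a fold of 6.52 lay 30.1 kb from it, just beyond the limit, while Cacng7 was marked by one at 29.8 kb, just within it.

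The alpha2delta subunits are extracellular proteins that raise the number of channels at the membrane. Cacna2d3 (chromosome 14, 28904943 to 29722775) had 5 summits, all at its 5′ side, against a mean of 2.33, and 19 of 100 genes of similar length had as many. They lay 94.8, 81.6, 10 and 5.02 kb inside the 5′ end and 0.36 kb beyond it, and none lay in the first 723 kb from the other end. Their pileups were 42.26, 30.05, 20.66, 20.66 and 31.93 in that order, and their folds 14.4, 7.76, 3.61, 7.34 and 11.4. The third and the fourth have equal pileups and differ in fold, and so in the background computed from it, 5.0 against 1.95. Cacna2d1, which encodes the main target of gabapentin, had no summit in 440 kb, and the nearest was 261 kb away. At its length 28 of 100 genes had none and the mean was 2.21.

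Cacna2d4 (chromosome 6, 119236524 to 119352407) had 4 summits in 116 kb against a mean of 0.69, and 4 of 100 genes of similar length had as many. Besides the one shared with Cacna1c, a peak with a pileup of 20.66 and a fold of 7.43 lay 0.639 kb below the gene. Inside it, 2 peaks with pileups of 46.01 and 30.05 and folds of 11.8 and 10.3 lay 3646 bp apart. The second of these was 1.34 kb from Lrtm2, the nearest other protein-coding gene. Cacna2d2, the other gabapentin-binding form, had no summit in 130 kb, where 54 of 100 genes of its length had none. Its nearest summit, with a fold of 10.1, was 86.9 kb away.

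The gamma family joins subunits of the muscle channel, such as Cacng1, with proteins that regulate AMPA receptors. Cacng2, the stargazin gene, had 3 summits inside its 128 kb, with pileups of 30.05, 23.48 and 49.77 and folds of 10.7, 8.47 and 10.2. The one with the highest pileup, at 78050881 to 78051195 on chromosome 15, did not have the highest fold. The background computed from its pileup and fold was 4.0. Cacng3 also had 3 inside its 97.7 kb, with pileups of 21.6, 15.02 and 17.84 and folds of 7.82, 4.44 and 6.52. At these lengths 6 and 7 of 100 genes had as many. All 6 summits lay nearer to the 3′ end than to the 5′ end, while the 4 inside Cacna2d3 lay nearer to the 5′ end.

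On chromosome 11, Cacng1, Cacng4 and Cacng5 stand in a row. Cacng4 had 3 summits in 62.4 kb against a mean of 0.71, and 5 of 100 genes of similar length had as many. Its strongest, at 107808061 to 107808409, had a pileup of 59.16, a fold of 20.8 and 63 fragments, equal to the peak beside Cacna1i. It lay 13.5 kb outside Cacng4 in the gap before Cacng5, which was 66.4 kb further on. The single summit of Cacng1, with a pileup of 42.26 and a fold of 10.8, lay inside that gene and counted for Cacng4 too, at 21.8 kb. The peak inside Cacng4 had a pileup of 17.84 and a fold of 6.52, and the 1 summit of Cacng5, with the same values, lay 15.3 kb outside it. On chromosome 7, Cacng7 had 1 summit, with a pileup of 18.78 and a fold of 4.95. Cacng6 and Cacng8 had none, and that of Cacng7 was the nearest to them, at 121 and 91.8 kb. At the lengths of Cacng1, Cacng5, Cacng6, Cacng7 and Cacng8, between 62 and 75 of 100 genes had no summit.

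**Figure D3:**
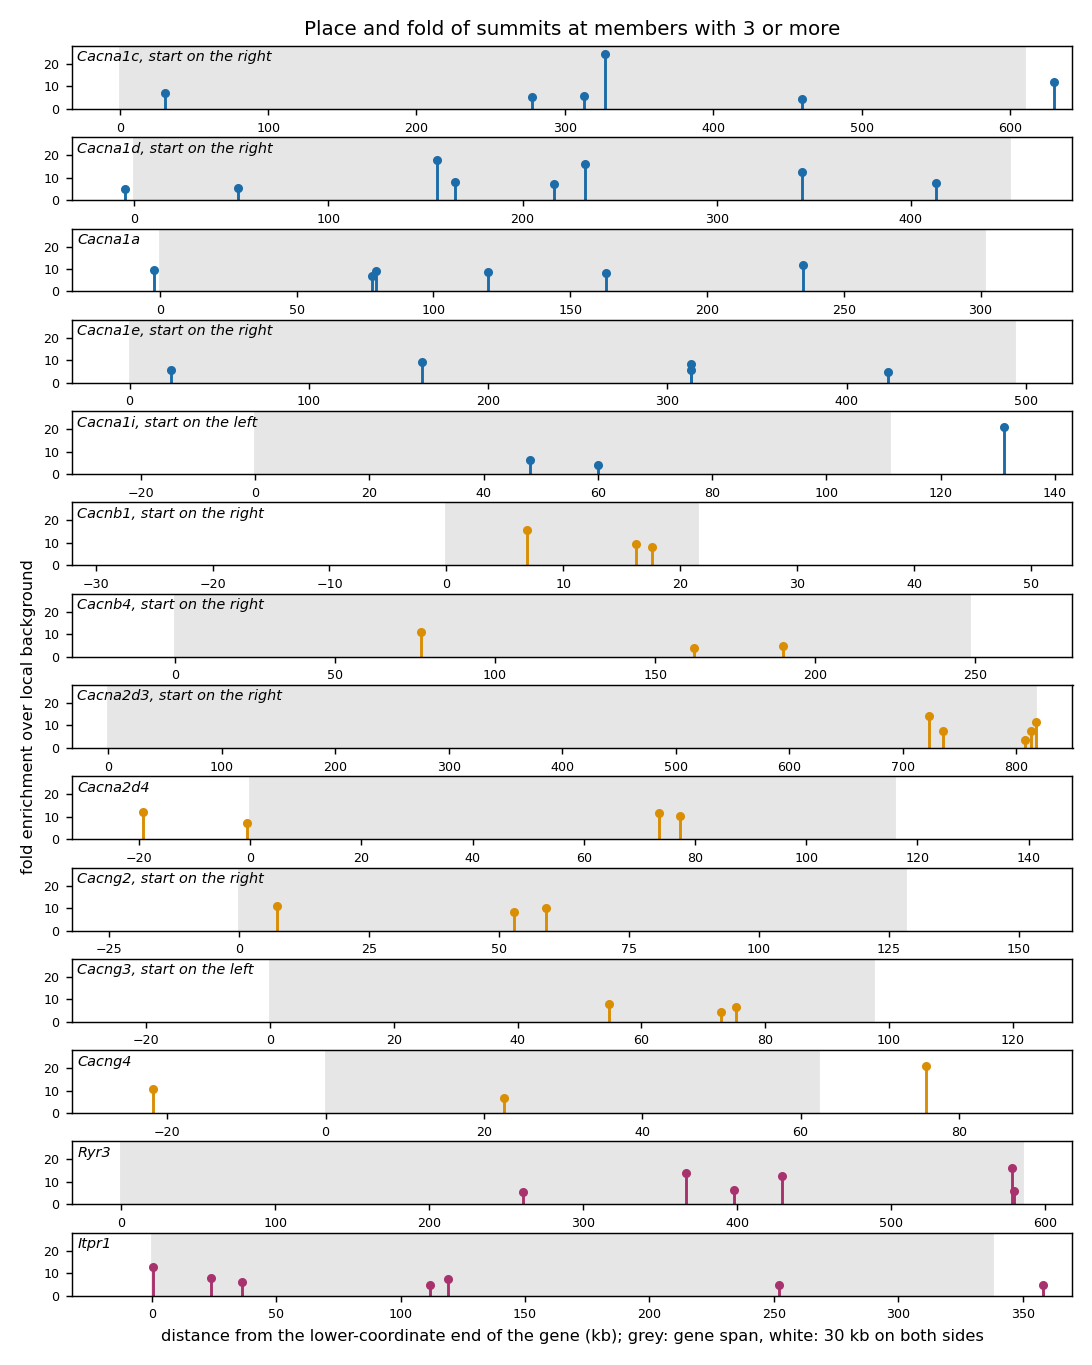
Place and fold of each summit at the 14 genes with 3 or more, against distance from the lower-coordinate end of the gene (grey: gene span, white: 30 kb on both sides), with the side of the start named where the annotation gives a strand. Cacna2d3 has its 5 summits at the start side, Cacna1d and Cacna1a have them throughout, and those of Ryr3 lie from 261 kb upwards.

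Among the release channels, Itpr1 encodes the main IP3 receptor of neurons. Itpr1 (chromosome 6, 108213083 to 108551116) had 7 summits against a mean of 1.49, and 1 of 100 genes of similar length had as many. The strongest, at 108213515 to 108213822, lay 0.595 kb inside the lower end of the gene, with a pileup of 35.68, a fold of 12.7 and 38 fragments (26.9 to 52.2). The other 5 inside had pileups of 29.11, 21.6, 18.78, 21.6 and 18.78 and folds of 7.96, 6.26, 4.95, 7.66 and 4.95. The last of the 7 lay 20 kb above the gene, with a pileup of 16.9 and a fold of 4.96. Apart from the first, the peaks of Itpr1 were thus no higher than 31 fragments (21.1 to 44.0), and that interval overlaps that of the first.

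Itpr2 had 2 summits inside the gene against a mean of 1.77 for its length. One, at 146403210 to 146403582 on chromosome 6, had a pileup of 53.52, a fold of 18.2 and 57 fragments (43.2 to 73.9), the highest fold of the release genes. The other had a pileup of 11.27, a fold of 4.09 and 12 fragments (6.20 to 21.0), so the intervals did not overlap. Itpr3 had 2 summits outside its span and both lay inside other genes. The first, with a fold of 9.64, lay 10.2 kb past its 3′ end in Uqcc2, and the second, with a fold of 5.87, lay 28.6 kb before its 5′ end in the overlapping Bak1 and Ggnbp1.

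Ryr3 (chromosome 2, 112631354 to 113217405) encodes a ryanodine receptor. It had 6 summits, all inside, against a mean of 1.81, and 6 of 100 genes of similar length had as many. The strongest, at 113210042 to 113210386, had a pileup of 55.4, a fold of 16.4 and 59 fragments (44.9 to 76.1). It lay 7.18 kb from the upper end and 965 bp from a weaker one with a pileup of 16.9 and a fold of 5.97. The other 4 had pileups of 39.44, 37.56, 35.68 and 15.96 and folds of 14.0, 6.43, 12.7 and 5.49, and none lay in the lower 261 kb. Ryr2, of similar length at 554 kb, had no summit, where 37 of 100 genes of its length had none. Its nearest, with a fold of 11, was 53.0 kb beyond the 5′ end. Ryr1, the skeletal muscle form, had 1 summit inside, 52.1 kb from its start, with a pileup of 24.41 and a fold of 7.04, where 35 of 100 genes of similar length had at least 1.

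In position, 60 of the 77 links were inside the member's span (77.9%), against 74.6% in genes of similar length, and the spans make up 78.5% of the searched windows. By class the share inside was 83.3% for pores, 69.0% for auxiliary genes and 83.3% for release genes, against 76.9%, 67.9% and 83.0%. Within 5 kb of either gene end lay 8 links, or 10.4%, against 16.3% in genes of similar length. There was 1 each at Cacna1a, Cacna1d, Cacna1g, Cacnb1, Cacnb2, Cacna2d3, Cacna2d4 and Itpr1. Of 48 links to the 24 genes with a known strand, 2 were within 1 kb of an annotated start, both at Cacnb1. This share was not counted for genes of similar length. Of the 48 links, 38 lay inside the gene, and 21 of these lay nearer to the 5′ end (55.3%, against 53.1%). The remaining 17 of the 77 links lay outside the span, and 11 of them were 5 kb or more from it. Of the 75 summits, 5 lay inside a protein-coding gene outside the 32, and 1 more, linked to Cacng4, lay inside Cacng1.

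In strength, the median pileup of the 75 peaks was 22.5, with quartiles of 17.8 and 34.7, against 21.6 over all peaks and 21.6 at genes of similar length. The median fold was 7.82, against 6.91 over all peaks and 6.85 at genes of similar length. Median folds were 7.99 for pores, 8.31 for auxiliary genes and 6.73 for release genes, and median pileups 22.5, 25.4 and 23.0. A peak of 24 fragments, close to the median, has a counting interval of 15.4 to 35.7. Folds of 10 or more belonged to 23 of the 75 peaks (30.7%), against 23.9% of all peaks. They were 7 of 30 peaks at pores, 12 of 28 at auxiliary genes and 5 of 18 at release genes, where the peak shared by Cacna1c and Cacna2d4 counts in both of its classes. Folds of 20 or more belonged to 4 of the 75 peaks, against 266 of the 7484 peaks in the list (3.55%). These 4 were at Cacnb2, Cacna1c, Cacna1i and Cacng4, of which the one at Cacna1c lay inside the gene. The strongest peak of each marked gene had a median fold of 11.7, against 8.47 in marked genes of similar length, and a gene with more peaks has more chances of a high one. The background had its lowest value, 1.89, under 42.7% of the members' peaks and 35.1% of all peaks, and its part in the folds was not tested. Peak widths ran from 174 to 584 bp.

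**Figure D4:**
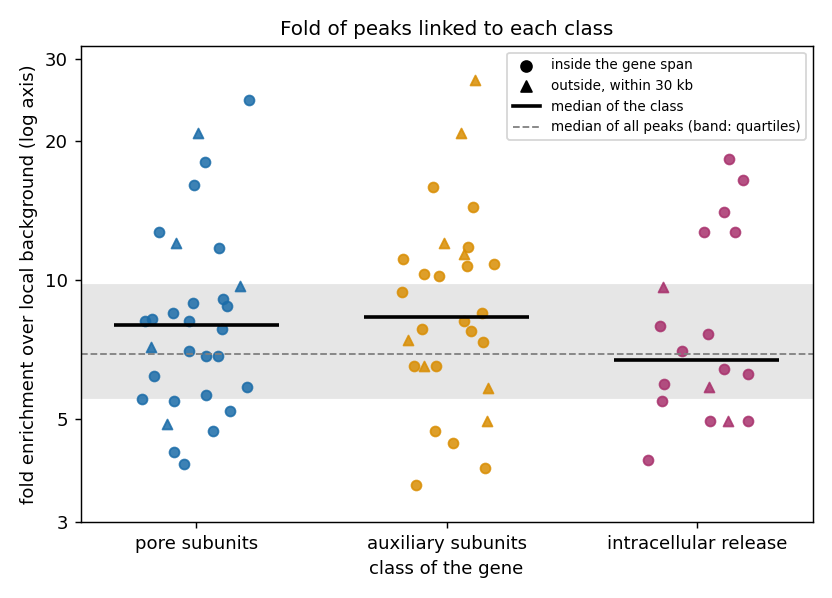
Fold enrichment (log axis) of each peak linked to pore, auxiliary and release genes (circles: inside the gene span, triangles: outside within 30 kb), with class medians as black lines and the median and quartiles of all peaks as a dashed line and grey band. The class medians of 7.99, 8.31 and 6.73 lie within the band. The 4 peaks above 20 belong to pore and auxiliary genes, where 3.55% of all peaks had a fold of 20 or more.

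Genes that act with these channels, 47 in 4 lists, were marked in 32 cases, 68.1%, where 40.9% of genes of their lengths were marked. The lists, like the members, were chosen with earlier results of these data known. Of 14 channel regulators 9 were marked, against 37.6% of genes of similar length. The highest folds were 18.6 at Rimbp2, which tethers presynaptic channels and had 6 summits, and 15.9 at Stac2, an adaptor of L-type channels with 4. The latter peak is the strongest one of Cacnb1, and lies 28.3 kb from Stac2. None of the 4 summits lay inside Stac2, and others of them may be counted for Cacnb1 too. The marks of partners and members are thus not separate counts. Among 13 genes of the ryanodine receptor complex and membrane junctions 7 were marked, against 39.3%, led by Asph with 15.0 and Homer3 with 12.9 inside Cers1 and Gdf1. Of 8 genes of IP3 production and removal 7 were marked, against 46.0%, led by the IP3 kinase gene Itpkc with 16.4 inside Numbl and the phospholipase C gene Plcb1 with 8.62. Of 12 genes of store-operated, lysosomal and mitochondrial entry 9 were marked, against 42.9%, led by the store sensor Stim1 with 14.6 and the channel gene Orai3 with 12.0 inside Fbxl19. These are the highest folds of each list. Over all peaks linked to a list, the median fold was 6.28 for channel regulators, 8.03 for the ryanodine receptor complex, 6.0 for IP3 production and removal and 6.03 for the last list. The median over the 4 lists together was 6.41, and it and 3 of the 4 medians were below the 6.91 of all peaks.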

How the data were processed

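ChIP-seq of striatum, 3 IP fractions and 1 input, was analysed as 1 deposited peak list. The submitters' processing notes list Bowtie2 2.3.4.2, MACS2 2.1.1.20160309.0, GRCm38 and mm10 with no role or settings, and each deposited peak name starts with MACS2. Pooling of the fractions was not stated in the labels. The authors deposited per peak a pileup signal, a fold enrichment as a linear ratio, and p-values and q-values as −log10. Fragments were computed here as pileup over its step (largest residual 0.00532). Background was computed as (pileup + 1) / fold − 1, which takes 1 to be added to both terms, a step that no header records.

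Gene spans came from the RefSeq table of GRCm38.p6, where all 32 symbols matched, and strands and starts from RefSeq promoters. Promoters of Cacna1a, Cacna1g, Cacna1h, Cacna2d4, Cacng1, Cacng4, Ryr3 and Itpr1 were not used here. Each member was set beside the 100 protein-coding genes nearest in log length. The script that counts summits per gene was tested on simulated data, summits placed at known positions, and gave the known counts. All members are named, with up to 2 genes of each partner list by highest fold. Members and lists were chosen with earlier results of these data known. Alternatives changed the window, peak threshold, peaks and compared genes. Python 3.11.15, pandas 2.3.3 and scipy 1.17.1 were used.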

Additional observations from a re-analysis of the deposited data

How the results depend on the processing

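Of 121 comparisons with 15 alternatives, 89 stayed within 1.5 times the reported value (counts) or within its binomial (shares) or Poisson (medians) interval, and 32 moved. The Poisson interval is the counting error of 1 peak at the median pileup and does not measure the spread of a median. The members marked stayed between 18 and 28 of 32 in the alternatives run with all 32, and their share was 1.36 to 2.0 times that of genes of similar length where both were computed. Among counts of marked genes, that of release genes moved, from 5 to 3 of 6, with summits within 30 kb of either gene end, where 31 summits were linked in place of 75. With a −log10 q of at least 10, 46 summits were linked, and above the median fold 45. Their median pileups were 31.5 and 31.0, against 22.5, and their median folds 9.94 and 10.2, against 7.82. These medians count among those that stayed, because the interval is wide. The share of links inside the span was 89.6% with an extension of 10 kb and 55.0% with 100 kb. The share of genes of similar length with a summit, 49.3%, became 42.2% with 10 kb, 64.4% with 100 kb and 36.4% with the span alone. It was 34.3% with a −log10 q of at least 10, 32.8% above the median fold, 35.4% for either end and 51.5% on autosomes. In the first 3 the window and in the next 2 the number of peaks differs by construction. Leaving out links whose summit lies inside another coding gene, an alternative chosen after seeing the data, kept 22 members and 70 summits. The share of genes of similar length was not computed under that rule, so the 22 cannot be set beside the 49.3%. No paired analysis was possible because the result comes from no test. The depth of each library was not used here.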

Other observations

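Some summits linked to members stood nearer to, or inside, other genes. The summit with a fold of 12.0 linked to Cacna1c lay inside Dcp1b, and the one with a fold of 4.9 linked to Cacna1d lay inside Chdh. The summit linked to Cacng5 lay 3.06 kb from Prkca and 15.3 kb from Cacng5. These neighbours were picked after their values were seen.

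Some members' summits came in close pairs, with 4 gaps under 2 kb, of 794 bp at Cacna1e, 965 bp at Ryr3, 1347 bp at Cacnb1 and 1483 bp at Cacna1a. In fold these pairs were 5.87 and 8.47, 16.4 and 5.97, 9.41 and 8.15, and 6.85 and 8.94. How often such pairs occur elsewhere was not counted.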
